A study of Arabidopsis thaliana with 2 samples.

Results

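The core cell cycle genes described here are 59 genes of Arabidopsis thaliana that were listed by gene identifier, out of 33557 genes in the deposited tables. The list holds cyclin-dependent kinases of the A and B types, cyclins of the A, B and D types, the KRP and SIM-type inhibitors, the E2F, DP and RBR1 regulators with the kinase WEE1, the MYB3R transcription factors, the CCS52 and CDC20 activators of protein degradation, the syntaxin KNOLLE and 2 Aurora kinases. All 59 identifiers were present in both tables and in the reference annotation. Names that the field writes with a semicolon (for instance in the cyclins) are written here with a hyphen, as in CYCB1-1.

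RNA was sequenced from whole seedlings of 1 genotype, the arp6-1 mutant in the Col0 background. The mutated gene encodes an actin-related protein of SWR1, the remodeller that places the histone variant H2A.Z into nucleosomes. The plants had grown for 10 days under long days at 17 °C and were collected at 15 min in the arm kept at 17 °C, in an experiment whose temperature shifts began at ZT1. There is 1 group with 2 libraries, called replicate 1 and replicate 2, and no wild type, warmer temperature or later time was analysed here. Values are therefore levels within arp6-1 seedlings, and the one comparison is between the duplicates. The labels do not say whether these came from separate cultures, so the difference between them may be technical.

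In plants, D-type cyclins with CDKA-1 start the passage from G1 into S phase by phosphorylating RBR1, which otherwise holds E2F transcription factors in check. A-type cyclins act from S phase to mitosis. B-type cyclins and the plant-specific B-type CDKs act at G2 and mitosis, and their genes are transcribed in a short window before division, which MYB3R factors control through the MSA element of their promoters. KRP and SIM-type proteins bind and inhibit CDKs, and CCS52 and CDC20 direct cyclins to the anaphase-promoting complex. In a seedling, dividing cells sit mainly in the shoot and root meristems, in young leaves and in the stomatal lineage, while most cells have stopped dividing and many have endoreduplicated.

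The gene counts summed to 20249142 in replicate 1 and to 12410991 in replicate 2. Levels are the TPM deposited by the authors, which divide out gene length and sequencing depth, and log levels are log2(TPM + 1). Differences were computed from the counts, as library-scaled counts (CPM) with edgeR's TMM factors for composition. They are given for the 19519 genes that reached 10 counts in each library. Replicate 2 was compared with replicate 1 by a two-sided exact binomial test on the counts of each gene, with Benjamini-Hochberg adjustment over all 19519 genes and a threshold of 0.05. This test and the 95% counting intervals cover counting error only, so they compare these libraries and not conditions. ARP6 itself had 7 counts in each library, and its span overlaps another gene in the tables. Chloroplast genes took 0.777% of the counts of replicate 1 and 0.179% of those of replicate 2. The leaf genes RBCS1A, RCA and LHCB1.3 were at 4550.1 and 4937 TPM, 3004 and 2815 TPM and 3541 and 3930.4 TPM in replicates 1 and 2, and AG of flowers, VGD1 of pollen and CRU3 of seeds had 0 counts in both. The protocols name 2 library kits and 2 sequencing centres without saying which was used for which replicate. The part of these in the differences below was not tested. Paired values are always in the order replicate 1, then replicate 2.

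Every member had at least 1 count, and 57 of 59 had at least 10 counts in both libraries. The exceptions were the cyclins CYCA2-1 and CYCD7-1. The members stood at moderate levels. Their median log level was 3.37 ± 0.51 (SD, n = 2), with 3.68 in replicate 1 and 2.95 in replicate 2. The same median over all 24537 genes with a count was 3.51 and 3.52. The median of the cell cycle genes thus lay above that of these 24537 genes in replicate 1 and below it in replicate 2. This wider set also holds genes with very few counts. Among the 19519 genes of the binomial test, the median member lay below the middle in both libraries. It was KRP3 in replicate 1 (11.8 TPM), at percentile 41.2 of their levels. In replicate 2 it was CDC20.2 (6.73 TPM), at percentile 27.6. Together they took 0.101% and 0.0637% of all TPM.

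**Figure D1:**
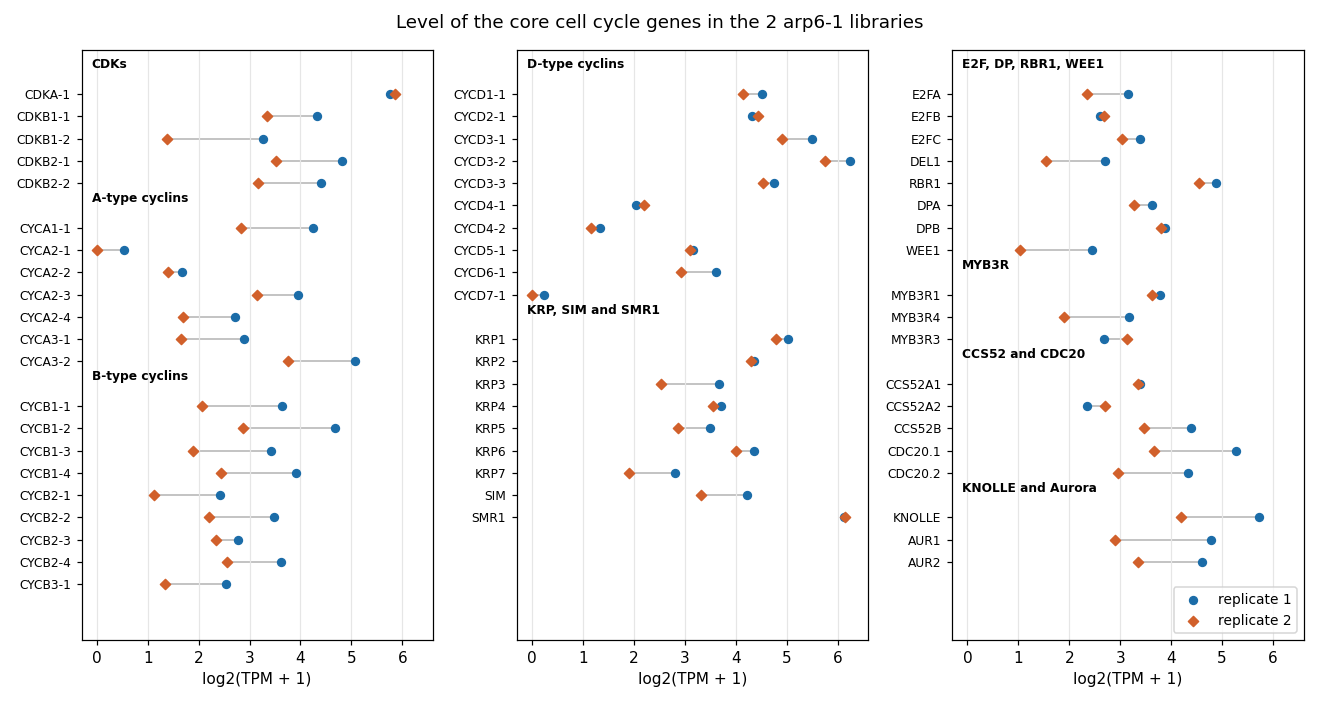
Level of each of the 59 cell cycle genes as log2(TPM + 1) on the x axis, 1 row per gene, grouped by class, with a circle for replicate 1 and a diamond for replicate 2 joined by a line. The B-type cyclins, B-type CDKs, CDC20 genes, KNOLLE and Aurora genes have their diamonds to the left of their circles, while CDKA-1, SMR1, CYCD2-1 and CCS52A1 have both symbols close together.

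Most members had lower values in replicate 2. Of the 57 members tested, 39 were lower and 1 was higher in replicate 2 by the binomial test. Among all 19519 genes tested 32.1% were lower and 32.1% higher by this test, so that a call on its own says little. By size, 32 of 57 members were at least 1.5-fold lower, against 19.2% of all genes, and 1 was at least 1.5-fold higher, against 17.7%. A difference of at least 2-fold was found in 25 members, all of them lower in replicate 2, against 8.24% of all genes lower and 8.76% higher by that size. The median log2 difference of the members was -0.89 (1.86-fold lower), beside -0.00 over all tested genes. With a minimum of 50 counts in both libraries, which leaves 42 members, that median was -0.48. Such a minimum removes members for having a low count in replicate 2, so the smaller difference is in part set by the filter. Below the value that 5% of all tested genes fell under, a log2 difference of -1.26, there were 23 members. With edgeR's exact test and the common dispersion of the 2 libraries (a coefficient of variation of 38.8%), 0 of 57 members passed in either direction, against 0.0666% of all genes lower and 0.799% higher. At an unadjusted p under 0.05 that test had 8 members lower and 0 higher, against 1.9% and 3.72% of all genes. The common dispersion was estimated with both libraries as 1 group, so the difference being tested is part of it. Few calls are thereby built into edgeR's test, and it is no independent check. Since whole seedlings were used, fewer cells of a type and less RNA per cell cannot be told apart.

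A set of 20 members known from the literature to peak at G2 and mitosis was separated from the other 39: the CDKB1 and CDKB2 kinases, CYCA1-1, the 9 B-type cyclins, CDC20.1, CDC20.2, CCS52B, KNOLLE, AUR1 and AUR2. The set was chosen with earlier results of these data known, so its contrast with the other members is no independent evidence. All 20 were tested and lower in replicate 2 by the binomial test, against 32.1% of all tested genes. Of the 20, 19 were at least 1.5-fold lower and 18 at least 2-fold lower, against 19.2% and 8.24% of all tested genes. The log2 differences of the 20 ran from -2.18 to -0.44, with a median of -1.53 (2.9-fold lower). Of the other members 37 were tested. Of these 19 were lower and 1 was higher, against 32.1% each way of all tested genes, and 17 did not pass. The differences of the 37 ran from -1.86 to 0.62, with a median of -0.38 (1.3-fold lower). The sets overlapped: 2 of the 37 other members lay below the mitotic median, and 14 below the mitotic gene that differed least. No mitotic gene lay above the median of the other members. In levels, the mitotic genes had the higher median in replicate 1 (4.29 against 3.60 on the log2 scale) and the lower one in replicate 2 (2.85 against 3.13).

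**Figure D2:**
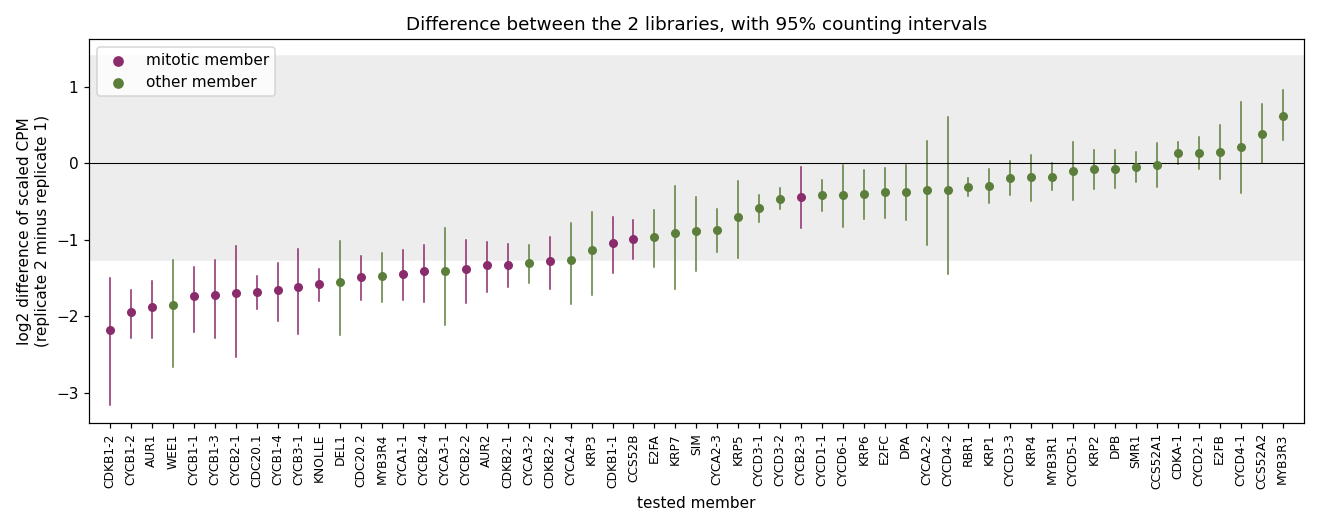
Log2 difference of scaled CPM, replicate 2 minus replicate 1, on the y axis for the 57 tested members in rising order, with bars for the 95% counting interval and a grey band from the 5th to the 95th percentile of all tested genes. The mitotic members fill most of the left end below -1 and reach -2.18, and MYB3R3 stands at the right end at 0.62.

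Among the kinases, the B types were lower in replicate 2 and CDKA-1 did not pass the test. CDKA-1 (AT3G48750), the general CDK that drives both G1 to S and G2 to M, had 52.9 and 57.1 TPM, from 1081 and 692 counts. The log2 difference was 0.13 (counting interval -0.01 to 0.27; adjusted p = 0.0857 in the exact binomial test). The B-type kinases, which are specific to plants and accumulate from S phase or G2 to mitosis, were all lower in replicate 2. CDKB1-1 (AT3G54180) had 19.1 and 9.17 TPM and was 2.06-fold lower (counting interval 1.62 to 2.7). CDKB1-2 (AT2G38620), its close relative, had 8.66 and 1.62 TPM from only 125 and 15 counts. At 4.52-fold lower (counting interval 2.84 to 8.95) it showed the largest fold of all members, but with the widest interval of the mitotic genes. The CDKB2 kinases, needed for meristem organisation, were nearer to each other. CDKB2-1 (AT1G76540) stood at 27.2 and 10.5 TPM and CDKB2-2 (AT1G20930) at 20.3 and 7.92 TPM, and they were 2.5-fold lower and 2.44-fold lower. The spans of CDKB1-2 and CDKB2-1 each overlap another gene in the tables, so that their counts are uncertain. Summed over the 4 genes, B-type kinase TPM was 1.42 times the level of CDKA-1 in replicate 1 and 0.511 times in replicate 2.

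The A-type cyclins included 1 mitotic gene and several that act earlier. CYCA1-1 (AT1G44110), which is expressed towards mitosis, had 17.96 and 6.1 TPM and was 2.72-fold lower (counting interval 2.2 to 3.46). CYCA3-2 (AT1G47210) and CYCA3-1 (AT5G43080), of the A3 group known from S phase, had 32.6 and 12.6 TPM and 6.44 and 2.15 TPM. These were 2.48-fold lower and 2.65-fold lower, within the range of the mitotic genes, although the A3 cyclins are not counted among them. The A2 cyclins, which with CDKB1 hold back endoreduplication, were spread. CYCA2-3 (AT1G15570) had 14.6 and 7.88 TPM (1.82-fold lower) and CYCA2-4 (AT1G80370) 5.55 and 2.21 TPM (2.4-fold lower). CYCA2-2 (AT5G11300) had 2.2 and 1.63 TPM from 62 and 28 counts and did not pass the test (log2 difference -0.35, counting interval -1.07 to 0.30). CYCA2-1 (AT5G25380) was barely detected, with 9 counts in replicate 1 and 0 in replicate 2. Against a floor of 3 counts for the library at 0, and with the 9 counts taken as exact, it was 1.75-fold lower there. That value is not a lower bound, since the 9 counts also carry counting error. Over the class, 5 of 6 tested genes were lower, against 32.1% of all tested genes, with a median log2 difference of -1.29.

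By the binomial test, against 32.1% of all tested genes, all 9 B-type cyclins were lower in replicate 2. These partners of CDKs at the entry into mitosis had a median of 10.1 TPM in replicate 1 and 3.6 TPM in replicate 2, and a median log2 difference of -1.65. CYCB1-2 (AT5G06150) was the highest of them, with 24.6 and 6.33 TPM, and had the largest fold of the class, 3.86-fold lower (counting interval 3.16 to 4.86). CYCB1-1 (AT4G37490), the usual reporter of cells in G2 and M, had 11.4 and 3.21 TPM and was 3.34-fold lower (counting interval 2.55 to 4.62). CYCB1-4 (AT2G26760) stood at 14.0 and 4.43 TPM and CYCB1-3 (AT3G11520) at 9.71 and 2.72 TPM. The 4 B1 cyclins differed by similar folds, from 3.14 to 3.86. The B2 cyclins were more varied. CYCB2-4 (AT1G76310), CYCB2-2 (AT4G35620) and CYCB2-1 (AT2G17620) had 11.2 and 4.86 TPM, 10.1 and 3.6 TPM and 4.34 and 1.17 TPM, and were 2.66-fold lower, 2.61-fold lower and 3.25-fold lower. CYCB2-3 (AT1G20610) stood apart with 5.82 and 4.05 TPM. At 1.36-fold lower (counting interval 1.04 to 1.81) it was the mitotic gene that differed least (adjusted p = 0.0375, exact binomial test). CYCB3-1 (AT1G16330), the single B3 cyclin, had 4.78 and 1.51 TPM and was 3.07-fold lower.

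The D-type cyclins, which link growth signals to the entry into the cycle, had smaller differences than most B types. Of 9 tested, 3 were lower and 0 were higher, against 32.1% each way of all tested genes, and 6 did not pass. Their median log2 difference was -0.35. CYCD3-2 (AT5G67260) ranked 1 of 59 members in replicate 1 and 3 of 59 in replicate 2, at 74.4 and 53.2 TPM. The D3 cyclins, which respond to cytokinin and keep leaf and meristem cells dividing, were otherwise at 43.9 and 29.0 TPM for CYCD3-1 (AT4G34160) and 25.9 and 22.1 TPM for CYCD3-3 (AT3G50070). Of these, CYCD3-2 and CYCD3-1 were 1.38-fold lower (counting interval 1.25 to 1.52) and 1.5-fold lower (counting interval 1.34 to 1.7), and CYCD3-3 did not pass (-0.19 on the log2 scale). CYCD1-1 (AT1G70210), known from germination, had 21.7 and 16.6 TPM and was 1.33-fold lower. CYCD2-1 (AT2G22490), a sugar-responsive cyclin, had 18.8 and 20.7 TPM and was among the few members with a value above 0 (log2 difference 0.14, counting interval -0.07 to 0.34). CYCD6-1 (AT4G03270), which SHORT-ROOT and SCARECROW switch on in the dividing root ground tissue, had 11.1 and 6.6 TPM and did not pass the test (adjusted p = 0.0539, exact binomial test). CYCD5-1 (AT4G37630) had 7.97 and 7.56 TPM, CYCD4-1 (AT5G65420) 3.12 and 3.58 TPM and CYCD4-2 (AT5G10440) 1.51 and 1.22 TPM, with no difference past the test. CYCD7-1 (AT5G02110), a cyclin of the last division of the stomatal lineage, had 3 counts in replicate 1 and 0 in replicate 2, at or under the floor in both.

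The CDK inhibitors spanned a wide range of levels. SMR1 (AT3G10525), which promotes endoreduplication in sepal and leaf epidermis, was the most abundant inhibitor at 69.1 and 69.6 TPM and ranked 2 of 59 members in replicate 1 and 1 of 59 in replicate 2. Its mean was 69.4 ± 0.362 TPM (SD, n = 2), from 584 and 330 counts, with no difference past the test. Its rank among the members depended on the length used. With TPM computed from counts and RefSeq exon lengths, CDKA-1 (60.1 and 64.1) stood above SMR1 (58.9 and 55.5). SIM (AT5G04470), its relative that keeps trichome cells from dividing, had 17.7 and 9.02 TPM and was 1.86-fold lower (counting interval 1.36 to 2.65). Of the 7 KRP genes, KRP1 (AT2G23430) was the highest at 31.6 and 26.7 TPM, followed by KRP2 (AT3G50630) at 19.6 and 18.6 TPM and KRP6 (AT3G19150) at 19.5 and 15.1 TPM. KRP2 did not pass the test (log2 difference -0.08), and KRP1 and KRP6 were 1.23-fold lower and 1.32-fold lower. KRP3 (AT5G48820), KRP7 (AT1G49620) and KRP5 (AT3G24810) had 11.8 and 4.76 TPM, 5.97 and 2.75 TPM and 10.2 and 6.26 TPM, and were 2.19-fold lower, 1.88-fold lower and 1.63-fold lower. KRP4 (AT2G32710), which limits cell size variation in the meristem, had 12.1 and 10.8 TPM and did not pass. In all, 6 of 9 inhibitors were lower by the test and 0 were higher, against 32.1% each way of all tested genes. By at least 1.5-fold 4 were lower, against 19.2% of all tested genes.

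Against 32.1% each way of all tested genes, 5 of the 8 regulators of the G1 to S step and WEE1 were lower and 0 higher. RBR1 (AT3G12280), the retinoblastoma homologue, was the highest of them at 28.5 and 22.4 TPM, and was 1.24-fold lower (counting interval 1.14 to 1.35). E2FB (AT5G22220), an activating E2F, had 5.05 and 5.4 TPM, and the dimerisation partner DPB (AT5G03415) 13.6 and 12.9 TPM. Both had log2 differences near 0 (0.15 and -0.08) and did not pass. DPA (AT5G02470) had 11.3 and 8.7 TPM (adjusted p = 0.0514, exact binomial test), and the repressive E2FC (AT1G47870) had 9.51 and 7.23 TPM and was 1.3-fold lower. Larger differences were seen in the other 3. E2FA (AT2G36010), an activating E2F, had 7.94 and 4.12 TPM and was 1.95-fold lower (counting interval 1.52 to 2.57), though its span overlaps another gene. DEL1 (AT3G48160), an atypical E2F that restrains endoreduplication in dividing cells, had 5.52 and 1.89 TPM and was 2.94-fold lower (counting interval 2.02 to 4.74). WEE1 (AT1G02970), the kinase of the DNA damage and replication checkpoint, had 4.43 and 1.06 TPM from 137 and 21 counts. At 3.62-fold lower (counting interval 2.39 to 6.35) its difference was the largest outside the mitotic set, and exceeded among all members only by those of CDKB1-2, CYCB1-2 and AUR1.

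Of the 3 MYB3R factors, 1 was lower, 1 was higher and 1 did not pass, where 32.1% of all tested genes were lower and 32.1% higher. MYB3R1 (AT4G32730), which can act as activator or repressor of G2 and M genes, had 12.8 and 11.4 TPM and did not pass (log2 difference -0.18, counting interval -0.36 to 0.00). MYB3R4 (AT5G11510), the activator of the family, had 8.0 and 2.71 TPM and was 2.77-fold lower (counting interval 2.25 to 3.51). MYB3R3 (AT3G09370), a repressor, had 5.45 and 7.77 TPM, and was the single member higher in replicate 2 by the test, at 1.54-fold higher (counting interval 1.24 to 1.94), adjusted p = 0.000262 in the exact binomial test. With total counts for scaling, or with the deposited TPM in place of counts, this gene was no longer past 1.5-fold. The pair MYB3R4 and MYB3R3 thus had opposite signs: the activator stood at 8.0 TPM above 5.45 TPM of the repressor in replicate 1, and at 2.71 TPM below its 7.77 TPM in replicate 2.

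Among the activators of the anaphase-promoting complex, the CDC20 genes were lower in replicate 2 and the CCS52A genes did not pass the test. CDC20.1 (AT4G33270) and CDC20.2 (AT4G33260), which act at the exit from metaphase, lie side by side on chromosome 4, at 16044352 to 16046792 and 16041067 to 16043457 in TAIR10. They had 37.9 and 11.6 TPM and 19.1 and 6.73 TPM and were 3.21-fold lower (counting interval 2.78 to 3.75) and 2.8-fold lower (counting interval 2.32 to 3.47). As closely related copies they may share reads, and how these were split is not given in the sources used here. CCS52B (AT5G13840), expressed from G2 to M, had 20.12 and 10.0 TPM and was 1.99-fold lower (counting interval 1.68 to 2.38), with 2 genes overlapping its span. CCS52A1 (AT4G22910) and CCS52A2 (AT4G11920), which promote the exit from the mitotic cycle and endoreduplication, had 9.49 and 9.24 TPM and 4.09 and 5.52 TPM. Neither passed the test, with log2 differences of -0.02 (counting interval -0.31 to 0.27) and 0.38 (0.01 to 0.77, adjusted p = 0.0585, exact binomial test).

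The genes of mitosis and cytokinesis proper were among the highest members in replicate 1. KNOLLE (AT1G08560), the syntaxin that fuses vesicles at the cell plate, had 51.7 and 17.2 TPM, from 1134 and 220 counts. It ranked 4 of 59 members in replicate 1 and 10 of 59 in replicate 2, and was 2.99-fold lower (counting interval 2.6 to 3.49), a difference below which 2.47% of all tested genes lay. AUR1 (AT4G32830) and AUR2 (AT2G25880), the alpha Aurora kinases of spindle and cell plate orientation, had 26.4 and 6.47 TPM and 23.3 and 9.24 TPM. They were 3.68-fold lower (counting interval 2.91 to 4.87) and 2.53-fold lower (counting interval 2.03 to 3.22). In every one of these 3 genes the value of replicate 1 was more than 2 times that of replicate 2, on the TPM as on the count scale. With TPM computed from counts and RefSeq exon lengths, AUR2 stood at 14.5 and 5.55 and CYCB3-1 at 7.6 and 2.34. These were the tested members whose mean level moved by more than 1.5-fold with that length.

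Summed over each class, the cell cycle genes had a different makeup in each library. B-type cyclins summed to 96.1 and 31.9 TPM, and D-type cyclins to 209 and 161 TPM. The D-type sum was therefore 2.17 times the B-type sum in replicate 1 and 5.04 times in replicate 2. The inhibitors summed to 198 and 164 TPM. Of the TPM of all members, the 20 mitotic genes made up 36.3% in replicate 1 and 20.18% in replicate 2.

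**Figure D3:**
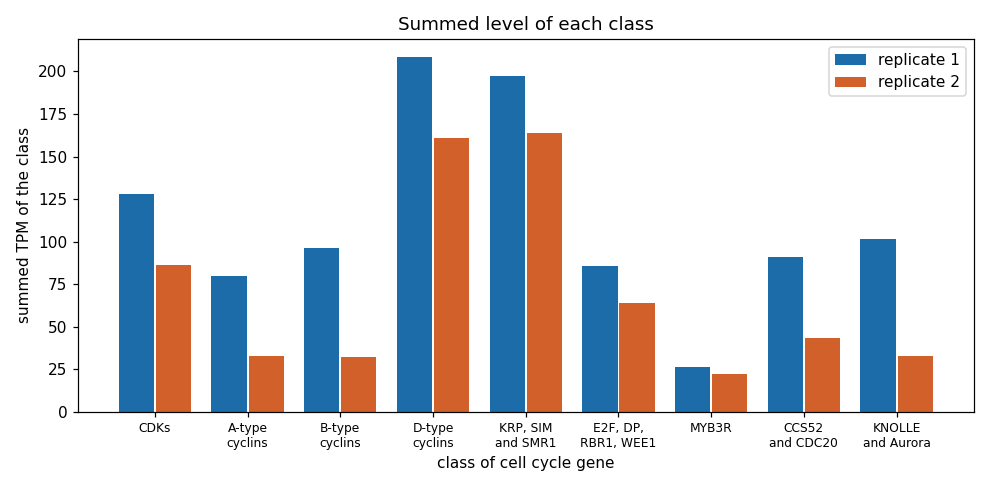
Summed TPM of each class of cell cycle gene on the y axis, with 1 bar for replicate 1 and 1 for replicate 2. The D-type cyclins (209 and 161 TPM) and the inhibitors lead in both libraries, and the B-type cyclins and the KNOLLE and Aurora class have the bars that differ most in proportion.

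Other genes of the cycle, in 5 lists of 73 genes outside the members, had medians on both sides of 0. Of 21 DNA replication genes 19 were lower in replicate 2 and 0 higher, with a median log2 difference of -1.19. Of 22 further genes of the mitotic machinery (kinesins, spindle checkpoint and condensation proteins) all 22 were lower, with a median of -1.47, close to the mitotic members. Of 13 subunits of the anaphase-promoting complex 9 were lower and 0 higher, with a median of -0.54. Of 10 other CDKs, their cyclin and CKS subunits 5 were lower and 2 higher, with a median of -0.18. Of 5 tested SIM-type inhibitors 4 were higher and 0 lower, with a median of 0.99. All tested genes had a median of -0.00. Calls in these lists come from the binomial test, which 32.1% of all tested genes passed in each direction. The lists were written with results of these data known, so their directions are no independent evidence.

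**Figure D4:**
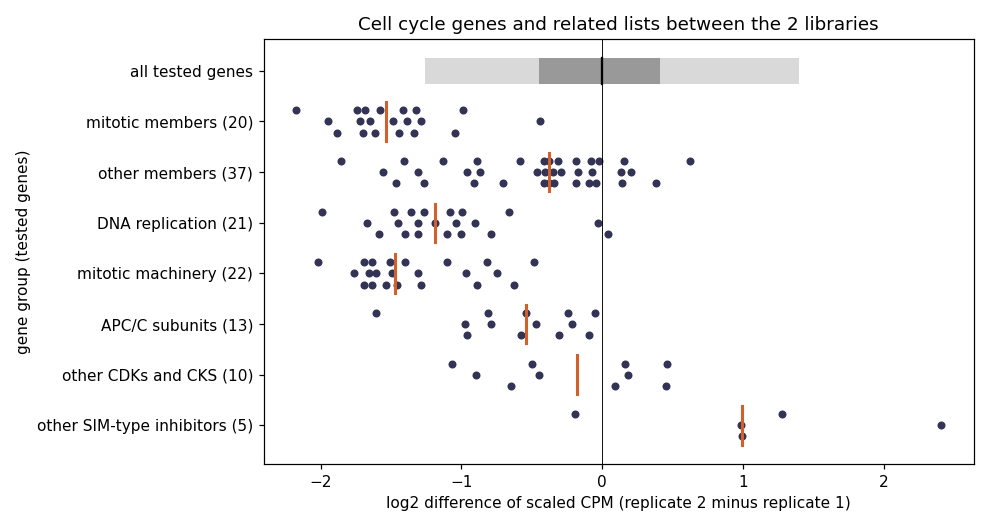
Log2 difference of scaled CPM, replicate 2 minus replicate 1, on the x axis, with 1 point per tested gene and an orange bar for the median of each group. For all tested genes the light bar spans the 5th to 95th and the dark bar the 25th to 75th percentile. The mitotic members (median -1.53) and mitotic machinery (-1.47) lie farthest left, and the other SIM-type inhibitors (0.99) farthest right.

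In the replication list, the 2 genes with the highest mean TPM were the ones that did not pass the test. TSO2 (AT3G27060) and RNR2A (AT3G23580), small subunits of ribonucleotide reductase, had 152 and 148 TPM and 35.1 and 36.1 TPM, with log2 differences of -0.03 and 0.04. RNR1 (AT2G21790), the large subunit of the same enzyme, had 40.7 and 14.5 TPM and was 2.73-fold lower (counting interval 2.47 to 3.05). PCNA2 (AT2G29570), a sliding clamp of the polymerases, showed the largest fold, with 27.6 and 6.84 TPM (3.97-fold lower), but it overlaps another gene and has a close copy. The 6 subunits of the MCM helicase were between 2.0 and 3.01-fold lower. The lowest in mean TPM were ORC1A, of the origin recognition complex, at 1.12 and 0.457 TPM, and CDC45 at 2.93 and 1.46 TPM.

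In the mitotic machinery, PANS1 (AT3G14190), which protects sister cohesion, had 21.7 and 7.4 TPM and BUB3.1 (AT3G19590) of the spindle checkpoint 17.2 and 10.2 TPM. EDE1 and PAKRP1, a microtubule-binding protein and a kinesin of the phragmoplast, had the lowest mean TPM, from 3.14 and 1.2 TPM and 3.46 and 1.83 TPM. UVI4 (AT2G42260), an inhibitor of the anaphase-promoting complex that restrains endoreduplication, had the largest fold of the list, with 6.51 and 1.54 TPM and was 4.06-fold lower (counting interval 2.6 to 7.66). Of the complex itself, BNS and APC10 were highest in mean TPM, at 32.3 and 15.4 TPM and 23.0 and 13.1 TPM, and CDC27a and AT1G06590 lowest at 3.24 and 1.89 TPM and 4.04 and 2.04 TPM. APC6 (AT1G78770) was 3.05-fold lower (counting interval 2.3 to 4.28), from 7.94 and 2.7 TPM, while all other subunits were within 2-fold. The spans of APC6, APC10, BUB3.1 and ORC1A overlap another gene.

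Of the remaining CDK genes, the small CDK-binding proteins CKS1 (AT2G27960) and CKS2 (AT2G27970) were highest in mean TPM, at 96.5 and 69.6 TPM and 62.2 and 29.0 TPM, and CKS2 was 2.1-fold lower. As neighbouring close copies they may share reads. The lowest were the CDK-activating kinase CDKD1-1 at 4.78 and 2.18 TPM and its cyclin CYCH-1 at 9.11 and 5.78 TPM. CDKE-1 (AT5G63610), of the Mediator complex, was the one with the largest fold upward, at 12.1 and 16.9 TPM (1.37-fold higher). The SIM-type inhibitors outside the members that passed the test were all higher in replicate 2. SMR5 (AT1G07500), which is known to be induced by stress and DNA damage, had 1.47 and 9.36 TPM from 48 and 155 counts and was 5.31-fold higher (counting interval 3.98 to 7.82). Its level depended on the length used: TPM computed from the counts and the RefSeq exon length was 15.0 and 80.9. AT1G08180 and AT1G10690, annotated in RefSeq as CDK inhibitors, and AT5G02420, annotated as SMR3-like, were 1.99-fold higher, 2.43-fold higher and 1.98-fold higher, from 9.06 and 18.1 TPM, 3.27 and 9.64 TPM and 6.68 and 13.9 TPM. AT5G40460, also SMR3-like, had 13.7 and 13.0 TPM and did not pass. SMR4 and SMR7 were under the minimum of 10 counts in replicate 2, and SMR4 pointed the other way from the inhibitors that passed. SMR4 had 38 and 6 counts (6.17 and 1.87 TPM) and SMR7 had 10 and 4 counts (1.66 and 2.02 TPM).

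Markers of tissues that hold dividing cells were measured beside these lists. In the shoot meristem, STM, KNAT1 and CLV1 had 5.27 and 5.82 TPM, 19.2 and 18.2 TPM and 28.9 and 25.1 TPM. WUS had 0 counts in both libraries and CLV3 0 and 1. CLV1 was called lower in replicate 2 (log2 difference -0.23), and STM and KNAT1 did not pass. That list, most of it CLV1 and KNAT1, summed to 53.4 and 49.4 TPM. In the list for the root tip, SCR had 58.3 and 48.1 TPM, PLT1 0.834 and 0.362 TPM, PLT2 0.89 and 0.609 TPM and WOX5 1.96 and 1.41 TPM. All 4 had the lower value in replicate 2, where SCR was called lower, PLT2 did not pass and PLT1 and WOX5 had too few counts to be tested. That list, most of it SCR, summed to 62.0 and 50.5 TPM, so the sum says little about PLT1, PLT2 and WOX5. In young leaves, the growth regulators AN3 and GRF5 had 22.1 and 22.5 TPM and 4.54 and 4.17 TPM, and ANT, which prolongs organ growth, had 18.3 and 10.4 TPM and was 1.74-fold lower (counting interval 1.5 to 2.03). The stomatal lineage genes SPCH, MUTE and FAMA had 7.84 and 6.23 TPM, 1.46 and 2.63 TPM and 6.38 and 10.2 TPM, so that SPCH of the early divisions was the lower one in replicate 2 and FAMA of the late stage the higher. The part of tissue makeup in the difference of the mitotic genes was not tested.

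The upstream sequences were examined for the letters of 2 elements that textbooks link to these genes, in the 250 bases before each gene's start in the RefSeq annotation of TAIR10.1, on both strands. The core of the MSA element, to which MYB3R factors bind, was searched as AACGG. It was present upstream of 11 of 20 mitotic members (55.0%) and 13 of 39 other members (33.3%), beside 20.6% of the 27443 protein-coding genes. Of the related lists, 16 of 22 mitotic machinery genes (72.7%) and 5 of 21 replication genes (23.8%) had it. At least 2 copies stood before 6 of 9 B-type cyclins, 7 of 20 mitotic members (35%) and 6 of 39 other members (15.4%). The same held for 3.62% of all genes and 0 of 10 D-type cyclins. The site of E2F factors was searched as TTTCCCGC, TTTGGCGC, TTTCGCGC and TTTGCCGC. None of these runs contains the MSA core, and they were found before 9 of 21 replication genes, 2 of 39 other members (CYCD3-3 and RBR1), 0 of 20 mitotic members and 1.41% of all genes. A match is only a run of letters, and its absence from this window says nothing about the factor. Matches and positions also depend on the annotation. The deposited gene spans had the same lower coordinate as RefSeq in 15 of 59 members. For AUR2, on the minus strand, the window begins at 11038192, while the deposited span ends at 11036910.

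The following upstream sequences show how the letters lie beside the values, each 250 bases long, read 5′ to 3′ towards the gene, with MSA cores and E2F letters in capitals. CYCB1-2 (chr5:1861704-1861953 on the minus strand, TAIR10.1) and CYCB1-3 (chr3:3627274-3627523 on the minus strand) are B-type cyclins at 3.86-fold lower and 3.3-fold lower. RBR1 (chr3:3919360-3919609 on the minus strand) carries 1 E2F run and 1 MSA core and was 1.24-fold lower. KRP1 (chr2:9978091-9978340 on the minus strand) holds 6 cores and was 1.23-fold lower, and CDC20.1 (chr4:16046938-16047187 on the minus strand) holds none and was 3.21-fold lower.
CYCB1-2: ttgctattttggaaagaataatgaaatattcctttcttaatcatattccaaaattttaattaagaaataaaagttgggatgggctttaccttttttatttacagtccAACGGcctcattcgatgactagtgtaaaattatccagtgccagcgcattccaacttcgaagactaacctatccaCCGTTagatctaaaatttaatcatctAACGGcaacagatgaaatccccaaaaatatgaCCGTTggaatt
CYCB1-3: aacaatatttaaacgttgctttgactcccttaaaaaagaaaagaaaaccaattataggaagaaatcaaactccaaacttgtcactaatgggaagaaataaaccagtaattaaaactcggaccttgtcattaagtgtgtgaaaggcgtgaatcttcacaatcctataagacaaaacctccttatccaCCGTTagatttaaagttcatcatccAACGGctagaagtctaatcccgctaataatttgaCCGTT
RBR1: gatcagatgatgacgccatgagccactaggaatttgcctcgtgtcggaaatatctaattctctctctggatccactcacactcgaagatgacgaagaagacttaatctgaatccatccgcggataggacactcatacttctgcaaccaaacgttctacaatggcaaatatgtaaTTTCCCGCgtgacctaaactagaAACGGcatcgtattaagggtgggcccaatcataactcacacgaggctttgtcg
KRP1: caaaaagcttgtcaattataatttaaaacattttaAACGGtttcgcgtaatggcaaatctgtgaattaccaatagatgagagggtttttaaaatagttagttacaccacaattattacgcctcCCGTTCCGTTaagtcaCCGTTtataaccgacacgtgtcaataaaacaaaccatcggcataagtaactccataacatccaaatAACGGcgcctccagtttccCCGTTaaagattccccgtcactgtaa
CDC20.1: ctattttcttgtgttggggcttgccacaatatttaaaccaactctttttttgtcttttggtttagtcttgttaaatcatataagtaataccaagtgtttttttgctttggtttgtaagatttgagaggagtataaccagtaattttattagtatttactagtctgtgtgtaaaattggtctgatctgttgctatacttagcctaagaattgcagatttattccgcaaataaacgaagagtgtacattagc

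CYCB1-2 holds 4 MSA cores and CYCB1-3 holds 3, the farthest from the start beginning at position -143 in CYCB1-2 and -64 in CYCB1-3. Of the genes shown, KRP1 with 6 cores was 1.23-fold lower and CDC20.1 with none was 3.21-fold lower. A relation between the number of cores and the difference was not tested. In RBR1 the E2F run lies at -76 to -69 and the core at -53 to -49, so that they do not overlap. Among the mitotic members without a core in the window were also CDKB1-1, CDKB1-2, CDKB2-1, CYCB1-4, CYCB2-4, CYCB3-1, CCS52B and CDC20.2. These were lower in replicate 2, as were all 20 mitotic members.

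**Figure D5:**
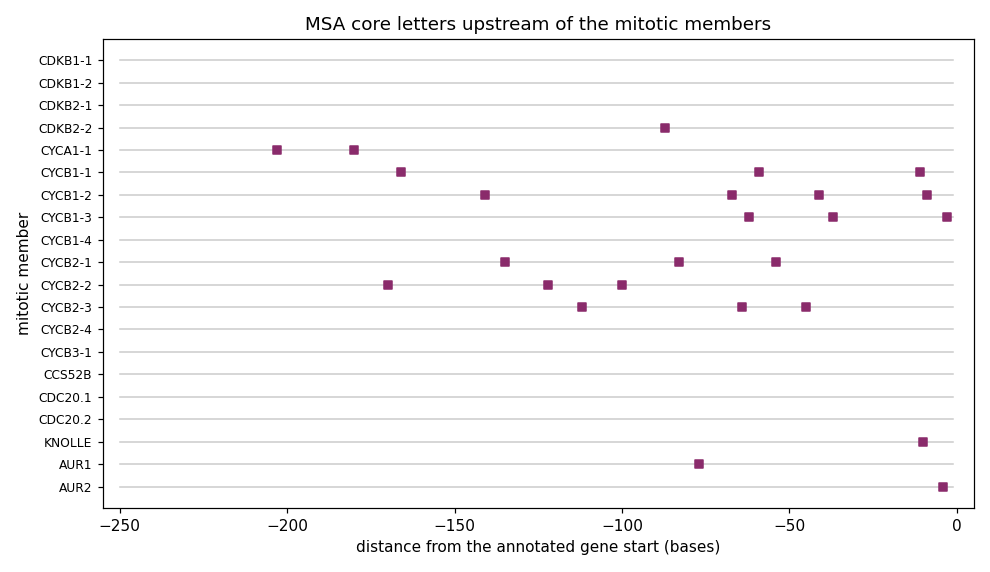
Position of each MSA core (squares) in the 250 bases upstream of the 20 mitotic members, with the distance from the annotated gene start in bases on the x axis and 1 row per gene. CYCB1-1, CYCB1-2, CYCB1-3, CYCB2-1, CYCB2-2 and CYCB2-3 have 3 or 4 squares each, and 9 genes have none.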

How the data were processed

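RNA-seq of 2 libraries of arp6-1 seedlings was used. The raw counts were deposited by the authors as whole numbers without normalization, per the file headers. The TPM and FPKM columns are the authors' values, and the deposited TPM is the deposited FPKM rescaled to the same sum in each library, as a recalculation showed. FPKM was used only for that check. FastQC, Trimmomatic, TopHat and Picard and the build TAIR10 are named in the submitters' processing notes. Neither the counter nor its strand option is stated there. The labels' protocols name a stranded and an unstranded TruSeq kit without saying which library had which, so overlapping genes (among the members CDKB1-2, CDKB2-1, E2FA and CCS52B) are uncertain.

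The depths were 20249142 and 12410991 counts, and a gene without counts may have had up to 3, equal to 0.148 and 0.242 CPM. These limits cover counting error only, since reads are not independent molecules. TMM factors (edgeR 4.0.16, R 4.3.3) were 1.02 and 0.976. Log2 differences used a prior count of 2, and intervals are 95% Clopper-Pearson. The binomial test (scipy 1.17.1) was tried on simulated counts with Poisson counting error only. Since these had no other variation between libraries, they cannot show how the test behaves on the real libraries. Alternatives were DESeq2 1.42.0 size factors, total counts, other count minimums, TPM computed from counts and exon lengths of TAIR10.1, and edgeR's exact test. File coordinates are printed 1-based.

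The members, the mitotic set and the 5 related lists were chosen with earlier results of these data known. All members could be named. Of each related list, the 2 highest and 2 lowest by level and the largest fold each way were named; RNR1, the MCM genes and the SIM-type inhibitors beyond that rule were chosen after their values were seen.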

Additional observations from a re-analysis of the deposited data

How the results depend on the processing

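The number of members lower in replicate 2 by the binomial test (39) stayed between 30 and 43 with DESeq2 size factors, total counts and other count minimums (CYCD3-3, CYCD6-1, DPA and MYB3R1 passed with total counts), and became 0 with edgeR's exact test and the common dispersion, where the 1 higher member also became 0. The 32 members at least 1.5-fold lower became 20 with a minimum of 50 counts, which tests 42 members, and the 1 member at least 1.5-fold higher (MYB3R3) became 0 with total counts, with the deposited TPM and with a threshold of 2-fold. The median log2 difference of the members was -0.48 with a minimum of 50 counts against -0.89. That of the mitotic members stayed between -1.61 and -1.34 in all settings tried, including the removal of a cubic trend on exon length and GC, added after seeing the data (-1.54). The median level of the mitotic members exceeded that of the other members by 0.32 on the log2 scale, but without replicate 1 the sign turned, and leaving out 1 replicate each gave -0.28 to 0.68. The MYB3R median was 2.91, 3.08 with TPM computed from counts, and 3.13 to 3.17 with 1 replicate. The CCS52 and CDC20 median was 3.64, and 3.36 to 4.33 with 1 replicate. The minimum of 50 counts must be reached in both libraries, so it removes members for being low in replicate 2. The weaker difference under that setting is in part set by the filter. The common dispersion of edgeR includes the difference between the 2 libraries, so few calls are built into that test. The cause of the other changes was not tested. No paired analysis was possible because there is only 1 group. Depth limits CYCA2-1 and CYCD7-1, whose counts of 0 in replicate 2 allow up to 3 counts.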
